A study of Mus musculus with 34 samples.

Results

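The gene set consists of 10 mouse integrin chains that leukocytes carry: Itgam, Itgax, Itgad, Itgal, Itgb2, Itgae, Itgb7, Itga4, Itgb1 and Itgb8. Each member was represented by the array probe set annotated to that symbol alone, and each had exactly 1 such probe set, so no choice among probe sets was needed. The 10 members were 10 of the 22180 genes tested. All were followed through every group of splenic dendritic cells (DCs), the cells that take up antigen and present it to T cells.

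Integrins are cell surface receptors made of an α and a β chain that must pair to leave the endoplasmic reticulum, so the amount of a receptor depends on both partners. Signals inside the cell switch them to a high-affinity shape, in which they bind matrix proteins or counter-receptors on other cells. In the spleen, DCs are sorted by integrin chains among other markers: CD11c (Itgax) marks DCs in general, CD11b (Itgam) marks CD8- DCs and CD103 (Itgae) is carried by many CD8+ DCs. Mst1 and Mst2 are kinases of the Hippo pathway, and in lymphocytes Mst1 is known to take part in the activation of the integrin LFA-1.

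DCs were sorted by flow cytometry from spleens of C57BL/6 mice, and their RNA was amplified and hybridised to expression arrays, 34 in all. Sorted CD8+ DCs, which cross-present antigen, comprised 4 Mst1/2-KO and 4 wild-type (WT) arrays, and sorted CD8- DCs, which prime CD4 T cells, likewise 4 Mst1/2-KO and 4 WT arrays. Total DCs comprised 3 Mst1/2-KO and 4 WT arrays, and none of these 23 arrays carries a stimulation label. Experiment 1 used total DCs stimulated with anti-CD40, which engages a receptor that T cells use to activate DCs, from 3 Rag1-/-/p38-/- and 4 Rag1-/- arrays; both groups share the Rag1 deletion, which removes mature T and B cells. Experiment 2 held 2 Rag1-/- arrays and 1 WT array with anti-CD40 and 1 Rag1-/- array without stimulation. The labels used here give no age and no promoter or Cre line for the Mst1/2 and p38 deletions. Nor do they tell whether the arrays within a group stem from different mice, so p-values measure the spread between these arrays only.

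Stk4, the gene of Mst1, lay between 7.22 and 7.67 on the log2 scale on the 8 sorted Mst1/2-KO arrays, against 8.15 to 8.46 on the 8 sorted WT arrays. It fell by 0.86 ± 0.10 (SE) for CD8+, by 0.77 ± 0.10 for CD8- and by 1.09 ± 0.09 for total DCs (limma, adjusted p = 0.000166, 0.000211 and 0.00154). The labels do not place its probes against the deleted part of the gene. The labelled subsets carried their markers: Cd8a averaged 12.10 (Mst1/2-KO) and 12.11 (WT) in CD8+ DCs, against 7.37 (Mst1/2-KO) and 6.69 (WT) in CD8- DCs. The mean over 7 genes common to DCs spanned 10.22 to 10.43 over the 4 sorted groups. T cell markers averaged between 3.95 and 4.83 per group, beside array medians of 4.11 to 4.20, and reached 5.27 on a WT total array. NK cell markers averaged between 4.45 and 5.72 per group, and macrophage and monocyte markers between 7.03 and 8.0. The mean of 3 Y-linked genes (Eif2s3y, Kdm5d, Uty) was set beside genotype. In CD8+ DCs it was 4.65 (4.18 to 5.03) for Mst1/2-KO and 5.06 (4.92 to 5.33) for WT arrays, and in CD8- DCs 4.65 (4.23 to 4.96) for Mst1/2-KO and 5.26 (5.13 to 5.37) for WT arrays, and the ranges were separate in CD8- DCs only. In total DCs it was 4.87 (4.82 to 4.91) for Mst1/2-KO and 4.93 (4.84 to 5.15) for WT arrays. Its part in the results was not tested. Signals are comparable within an experiment label only, and levels of different probe sets cannot be set against each other.

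The first question was which integrin chains differed when Mst1/2 was lost. Between Mst1/2-KO and WT arrays, 4 of 10 members rose in CD8- DCs (Itgam, Itgad, Itgb7 and Itgb1), 2 of 10 rose in CD8+ DCs (Itgam and Itgb7) and 1 of 10 rose in total DCs (Itgad). No member fell in any of these comparisons. In RNA from pooled cells, more cells with a transcript and more transcript per cell cannot be told apart. Of all genes tested, 6.68% were called in CD8- DCs (3.90% higher), 0.888% in CD8+ DCs (0.234% higher) and 0.848% in total DCs (0.316% higher), where called means a limma p adjusted over all genes under 0.05. The median change of the members was 0.22 for CD8-, 0.11 for CD8+ and 0.15 for total DCs, against 0 over all genes in each. The ranges of Mst1/2-KO and WT arrays were separate for 4 of 10 members in CD8- DCs (12.0% of all genes), 4 of 10 in CD8+ DCs (6.33%) and 5 of 10 in total DCs (13.8%).

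**Figure D1:**
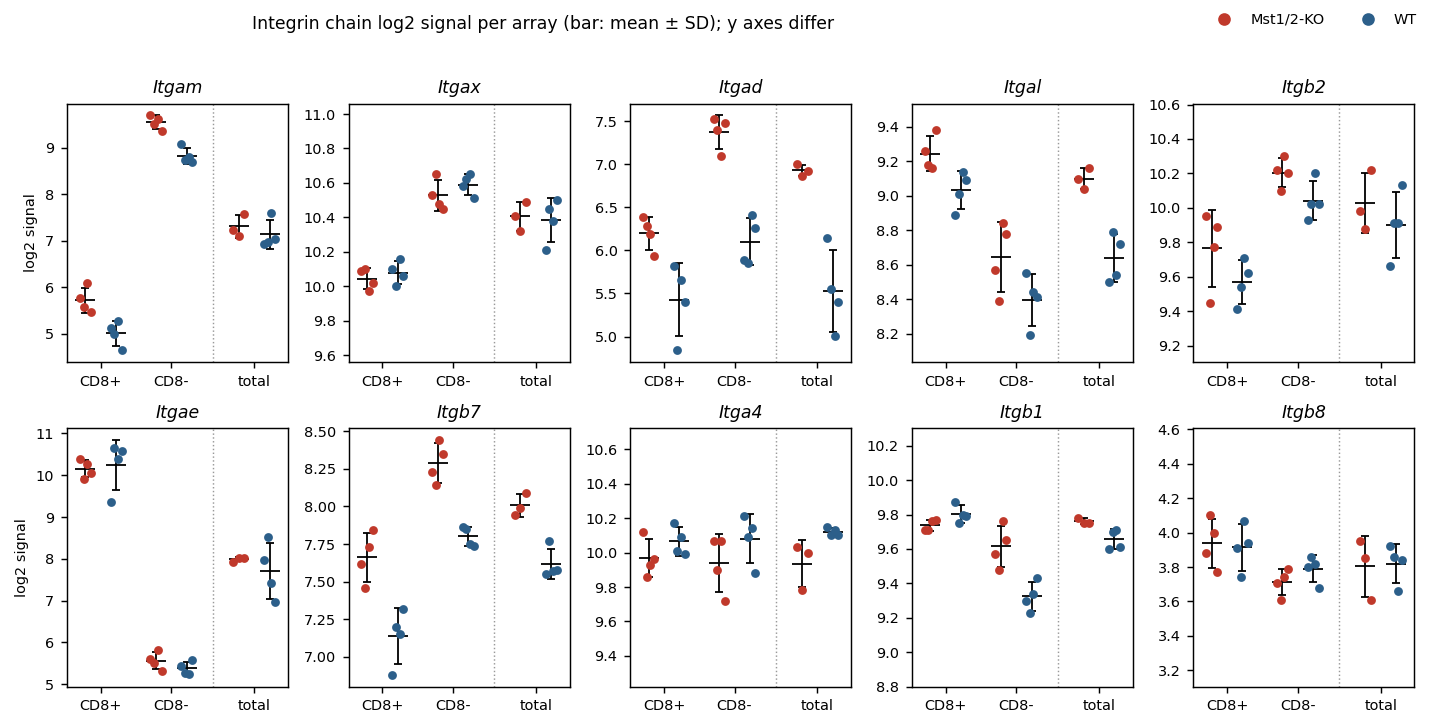
Log2 signal of the 10 integrin chains on each array of Mst1/2-KO (red, left) and WT (blue, right) CD8+, CD8- and total DCs, with the mean and SD of each group (n = 4, and 3 for Mst1/2-KO total DCs). The dotted line parts the sorted from the total arrays, whose levels are not comparable, and the y axes differ; in CD8- DCs all Mst1/2-KO points of Itgam, Itgad, Itgb7 and Itgb1 lie above all WT points.

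Itgam (probe set 17483577, chromosome 7) encodes αM (CD11b), which pairs with β2 to form the complement receptor Mac-1. In CD8- DCs its log2 signal was 9.69, 9.51, 9.62 and 9.35 on the Mst1/2-KO arrays, against 9.07, 8.73, 8.79 and 8.68 on the WT arrays. Every Mst1/2-KO array lay above every WT array. The change was 0.72 ± 0.14 (SE), a 1.65-fold rise (n = 4 and 4, limma adjusted p = 0.00458). In CD8+ DCs, which carry little Itgam, the Mst1/2-KO arrays gave 5.76, 5.57, 6.08 and 5.46, against 5.11, 4.99, 5.28 and 4.64 on the WT arrays. Here too the groups did not overlap, and Itgam rose by 0.71 ± 0.14, or 1.64-fold (adjusted p = 0.0209). This CD8+ call ended without WT replicate 2 or 4, without Mst1/2-KO replicate 1 or 3, or with a fit to these groups alone (adjusted p = 0.0589 to 0.101), while the change stayed between 0.59 and 0.71 in these settings. The genotype effects in the subsets differed by 0.01 with a 95% interval of -0.42 to 0.44. In total DCs the Mst1/2-KO arrays gave 7.23, 7.10 and 7.58, against 6.92, 6.97, 7.60 and 7.03 on the WT arrays. WT replicate 3 stood above all Mst1/2-KO arrays, and the difference of 0.17 ± 0.18 did not pass the test (adjusted p = 0.761).

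Itgad (probe set 17483648, chromosome 7) encodes αD (CD11d), a β2 partner known from macrophages of the splenic red pulp. Its Mst1/2-KO CD8- arrays gave 7.53, 7.40, 7.10 and 7.48, against 5.89, 5.85, 6.41 and 6.26 on the WT CD8- arrays. The groups lay far apart, and Itgad rose by 1.27 ± 0.18, or 2.42-fold (n = 4 and 4, adjusted p = 0.000385), the largest change among the 10 members in these cells. In CD8+ DCs the values were 6.39, 6.28, 6.19 and 5.94 on Mst1/2-KO arrays, against 5.82, 4.84, 5.66 and 5.40 on WT arrays. They did not overlap either, but the WT arrays spread widely (SD 0.43) and the difference of 0.77 ± 0.18 missed the threshold (adjusted p = 0.0593). It passed with only genes above the median gene, with an intensity trend and robust prior or without WT replicate 1 (adjusted p = 0.0402, 0.0429 and 0.0275). The effect was larger in CD8- than in CD8+ DCs by 0.51 ± 0.26, which did not pass (adjusted p = 0.58).

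Total DCs gave 7.0, 6.87 and 6.92 for Itgad on Mst1/2-KO arrays, against 6.15, 5.55, 5.01 and 5.40 on WT arrays. The Mst1/2-KO arrays lay close together above all WT arrays. Itgad rose by 1.41 ± 0.22, or 2.65-fold (n = 3 and 4, adjusted p = 0.0207). The call ended without WT replicate 2 or 4 or any 1 of the 3 Mst1/2-KO arrays (adjusted p = 0.0605 to 0.11), with changes of 1.36 to 1.43. In the sorted cells the order of group means was Mst1/2-KO CD8- (7.38), Mst1/2-KO CD8+ (6.20), WT CD8- (6.10) and WT CD8+ (5.43), and the ranges of the middle groups overlapped.

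Itgax (probe set 17483615, chromosome 7) encodes αX (CD11c), the chain by which DCs are commonly gated. Its means were 10.04 ± 0.06 in Mst1/2-KO and 10.08 ± 0.07 in WT CD8+ DCs (SD, n = 4 each), and 10.53 ± 0.09 in Mst1/2-KO and 10.59 ± 0.06 in WT CD8- DCs. In total DCs they were 10.41 ± 0.09 in Mst1/2-KO and 10.38 ± 0.13 in WT. The genotype difference was -0.03 (95% interval -0.18 to 0.11) in CD8+ DCs and -0.06 (-0.20 to 0.08) in CD8- DCs, so a change of the size of that of Itgam lies outside both intervals. The labels used here name no marker of the sort other than CD8.

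Itgal (probe set 17483264, chromosome 7) encodes αL (CD11a) of LFA-1, the receptor of Icam1. Total DCs gave 9.10, 9.04 and 9.16 on Mst1/2-KO arrays, against 8.50, 8.79, 8.54 and 8.72 on WT arrays. The groups did not overlap, and the difference of 0.46 ± 0.10 missed the threshold (adjusted p = 0.0778). It passed with an intensity trend and robust prior (adjusted p = 0.0343). In the sorted subsets the differences were 0.25 ± 0.10 in CD8- (adjusted p = 0.199) and 0.21 ± 0.10 in CD8+ DCs (adjusted p = 0.498). Itgb2 (probe set 17234647, chromosome 10), the common β2 chain of all 4 α chains above, averaged 10.20 ± 0.08 in Mst1/2-KO and 10.04 ± 0.11 in WT CD8- DCs, and 9.77 ± 0.22 in Mst1/2-KO and 9.57 ± 0.13 in WT CD8+ DCs. Its differences of 0.16 ± 0.10 for CD8-, 0.20 ± 0.10 for CD8+ and 0.13 ± 0.13 for total DCs did not pass (adjusted p = 0.458, 0.536 and 0.76).

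**Figure D2:**
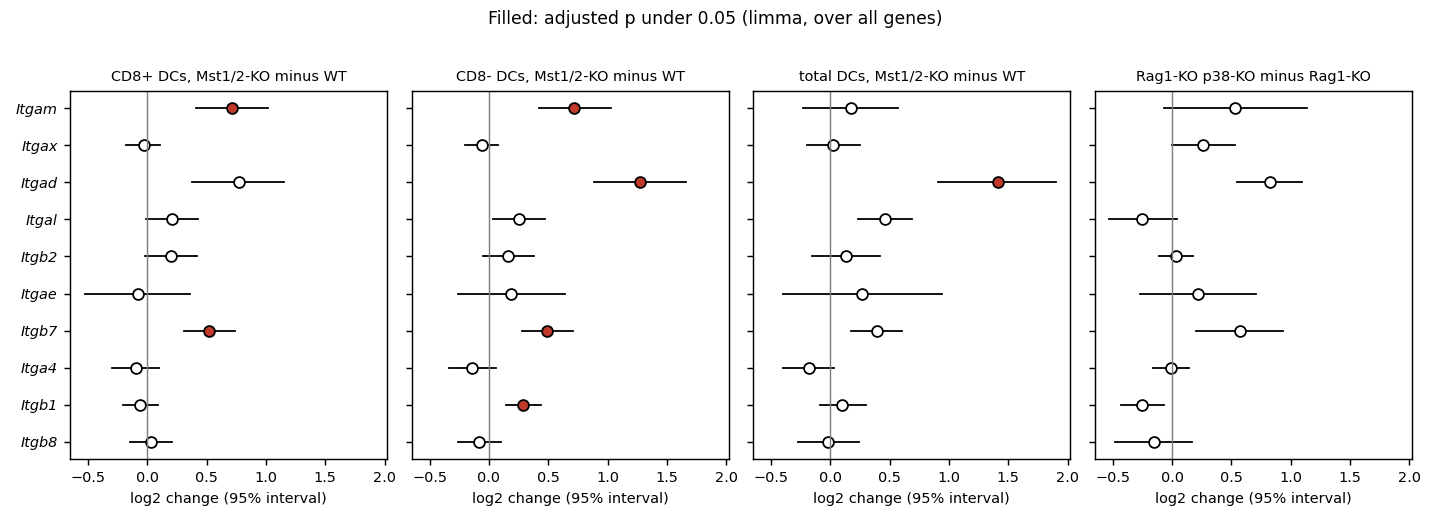
Log2 change of each integrin chain with its 95% interval in 4 comparisons: Mst1/2-KO minus WT in CD8+, CD8- and total DCs, and Rag1-/-/p38-/- minus Rag1-/- in anti-CD40-stimulated total DCs. Filled points passed an adjusted p under 0.05; Itgad lies above 0 in all 4 panels, at 0.77, 1.27, 1.41 and 0.83, and Itgb7 at 0.52, 0.49, 0.39 and 0.57.

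Itgam, Itgax and Itgad lie next to each other on chromosome 7 in the RefSeq annotation, and in CD8- DCs Itgam and Itgad rose while Itgax did not pass the test. The upstream windows of the neighbours Itgam and Itgax are shown because Itgam was called for genotype in both sorted subsets and Itgax in none, and that of Itgb1 because it had the smallest p among the members for a different effect in the subsets. They come from RefSeq (GRCm38.p6), each reading 5′ to 3′ up to the base before the earliest annotated start of the gene. Capitals mark matches, on either strand, to 6 short motifs that were searched: GAGGAA for PU.1, GGAATG for TEAD, TGTGGT for RUNX, TGANTCA for AP-1, and longer letter patterns for an IRF pair and for NF-kB.
Itgam (chr7:128062390-128062639, + strand): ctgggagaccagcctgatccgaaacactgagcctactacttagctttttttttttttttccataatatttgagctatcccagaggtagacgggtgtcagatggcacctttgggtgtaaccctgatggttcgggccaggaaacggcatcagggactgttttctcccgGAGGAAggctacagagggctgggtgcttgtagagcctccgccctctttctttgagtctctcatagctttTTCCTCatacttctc
Itgax (chr7:128129300-128129525, + strand): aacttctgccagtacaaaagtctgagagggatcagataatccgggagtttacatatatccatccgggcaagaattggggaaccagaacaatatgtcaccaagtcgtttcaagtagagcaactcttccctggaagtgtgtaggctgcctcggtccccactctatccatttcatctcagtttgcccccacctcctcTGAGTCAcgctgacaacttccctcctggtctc
Itgb1 (chr8:128685404-128685653, + strand): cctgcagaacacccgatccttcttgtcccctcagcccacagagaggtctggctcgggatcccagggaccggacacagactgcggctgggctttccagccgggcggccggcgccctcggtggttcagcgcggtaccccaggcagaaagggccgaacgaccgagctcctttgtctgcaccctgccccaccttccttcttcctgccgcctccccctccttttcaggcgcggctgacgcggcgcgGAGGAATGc

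The Itgam window of 250 bases held 2 matches to GAGGAA, the core letters of PU.1, a myeloid transcription factor, 1 on each strand. The Itgax window of 226 bases held 0 of these and 1 match to TGANTCA. In the Itgb1 window of 250 bases, GAGGAA and GGAATG overlapped in a single capital run. Of 27025 promoter windows, 23.1% held GAGGAA, 6.87% TGANTCA and 12.6% GGAATG, the letters bound by TEAD factors, which act at the end of the Hippo pathway. TGTGGT was held by 14.2% of windows, the NF-kB pattern by 17.3% and the IRF pair by 3.04%. A match describes letters only, and says nothing about binding. The shares count 1 window of 250 bases per gene. A window was found for 6 of 10 members, and those of Itga4, Itgb7 and Itgb8 are not printed. The Itgb7 window held 0 matches to the 6 motifs, although Itgb7 too was called for genotype in both sorted subsets. It held 0 bases before the earliest annotated start. The Itgb8 window held 0 matches and that of Itga4 held 1, to TGTGGT. A link between motifs and genotype changes was not tested.

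Itgb7 (probe set 17322163, chromosome 15) encodes β7, the partner of αE and α4 in receptors that bind E-cadherin and the gut addressin. CD8- arrays gave 8.23, 8.14, 8.44 and 8.35 in Mst1/2-KO, against 7.86, 7.85, 7.75 and 7.74 in WT. CD8+ arrays gave 7.62, 7.46, 7.73 and 7.84 in Mst1/2-KO, against 6.88, 7.20, 7.15 and 7.32 in WT. The genotypes did not overlap in either subset. Itgb7 rose by 0.49 ± 0.10 in CD8- DCs (1.41-fold, adjusted p = 0.00576) and by 0.52 ± 0.10 in CD8+ DCs (1.44-fold, adjusted p = 0.015). The CD8+ call ended without Mst1/2-KO replicate 3 or 4 or with a fit to these groups alone (adjusted p = 0.0623, 0.0645 and 0.0952). The effects in the subsets differed by -0.03 (95% interval -0.33 to 0.27). Total DCs gave 7.94, 7.99 and 8.09 in Mst1/2-KO against 7.55, 7.77, 7.57 and 7.58 in WT, without overlap, and the difference of 0.39 ± 0.10 did not pass (adjusted p = 0.112). The order of the sorted means was Mst1/2-KO CD8- (8.29), WT CD8- (7.80), Mst1/2-KO CD8+ (7.66) and WT CD8+ (7.14), of which the middle groups overlapped in range.

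Itgae (probe set 17252574, chromosome 11) encodes αE (CD103), which pairs only with β7 and binds E-cadherin. CD8+ arrays gave 10.38, 9.92, 10.26 and 10.05 in Mst1/2-KO, against 9.35, 10.64, 10.39 and 10.57 in WT. WT replicate 1 stood more than 1 log2 unit below the other WT arrays, and the groups overlapped. The genotype difference was -0.08 ± 0.21 in CD8+ DCs and 0.19 ± 0.21 in CD8- DCs (adjusted p = 0.942 and 0.739). In total DCs the Mst1/2-KO arrays lay within 7.93 to 8.02 and the WT arrays spread over 6.96 to 8.51, a difference of 0.27 ± 0.30 (adjusted p = 0.779). Of the αEβ7 pair, the β7 chain was thus called in both sorted subsets and the αE chain in none.

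Itga4 (probe set 17372307, chromosome 2) encodes α4 (CD49d), which binds Vcam1 and fibronectin with β1 and the gut addressin with β7. It varied least of all members in the sorted cells, its group means spanning 0.14, and gave 9.94 ± 0.17 in Mst1/2-KO and 10.08 ± 0.14 in WT CD8- DCs. Its differences were -0.14 ± 0.09 for CD8-, -0.10 ± 0.09 for CD8+ and -0.18 ± 0.09 for total DCs (adjusted p = 0.493, 0.797 and 0.465). In total DCs all 3 Mst1/2-KO arrays (9.78 to 10.03) lay below all 4 WT arrays (10.10 to 10.15).

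Itgb1 (probe set 17507014, chromosome 8) encodes β1 (CD29), the partner of many matrix-binding α chains. CD8- arrays gave 9.57, 9.48, 9.76 and 9.65 in Mst1/2-KO, against 9.30, 9.23, 9.34 and 9.43 in WT. The groups did not overlap, and Itgb1 rose by 0.29 ± 0.07, or 1.22-fold (adjusted p = 0.02). The call ended without WT replicate 2, without Mst1/2-KO replicate 3 or 4, or with a fit to these groups alone (adjusted p = 0.0647 to 0.0823). CD8+ arrays gave 9.71, 9.71, 9.76 and 9.77 in Mst1/2-KO, against 9.87, 9.75, 9.80 and 9.79 in WT, a difference of -0.06 ± 0.07 (adjusted p = 0.836). The effect in CD8- DCs exceeded that in CD8+ DCs by 0.35 ± 0.10, with an unadjusted p of 0.00291 that did not pass adjustment (adjusted p = 0.151).

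Itgb8 (probe set 17284839, chromosome 12) encodes β8, which with αV releases active TGF-β on DCs. Its signal lay between 3.61 and 4.17 on all 34 arrays and below the array median on 33 of them, so the array gives little or no measurable level of it. Its genotype differences were 0.03 ± 0.09 for CD8+, -0.08 ± 0.09 for CD8- and -0.02 ± 0.11 for total DCs (adjusted p = 0.956, 0.722 and 0.973). Itgav, the gene of αV, averaged 7.91 ± 0.14 in Mst1/2-KO and 7.98 ± 0.06 in WT CD8- DCs (adjusted p = 0.731).

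Across all 10 members, 0 passed the test of a different genotype effect in CD8- and CD8+ DCs, against 0.559% of all genes, and 1 of 10 (Itgb1) had an unadjusted p under 0.05 against 9.15% of all genes. The call of Itgad and Itgb1 in CD8- DCs but not in CD8+ DCs is therefore not shown to be a difference between the subsets.

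Markers moved with genotype in the CD8- sort. Of 12 CD8+ DC markers, 6 rose and 1 fell, with a mean over the list of 8.07 (7.76 to 8.25) on Mst1/2-KO and 7.62 (7.32 to 7.87) on WT arrays. Of 12 CD8- DC markers, 6 fell and 2 rose, with means of 8.39 (8.33 to 8.48) on Mst1/2-KO and 8.88 (8.82 to 8.95) on WT arrays. Of these, Cd4 fell by 2.03 ± 0.21 and Esam, an adhesion molecule of the CD4 subset, by 1.55 ± 0.14. Of 9 plasmacytoid DC markers, 4 rose, with means of 8.08 (7.83 to 8.22) on Mst1/2-KO and 7.26 (6.99 to 7.49) on WT arrays. Cox6a2 belongs to this list and had its largest change, 3.73 ± 0.17, against a list median of 0.53, so it weighs heavily in the list mean. Of 9 B cell markers, 3 fell, with means of 4.81 (4.73 to 4.96) on Mst1/2-KO and 5.26 (5.11 to 5.42) on WT arrays. Of the other lists, 1 of 7 general DC markers and 1 of 9 T cell markers fell, 1 of 16 macrophage and monocyte markers rose and 1 fell, and 0 NK cell, neutrophil and platelet markers were called. In CD8+ DCs 0 markers of all 10 lists were called for genotype. The part of these markers' cells in the integrin changes was not tested. In total DCs the CD8- DC markers averaged 7.20 (6.99 to 7.34) on Mst1/2-KO and 7.71 (7.59 to 7.85) on WT arrays, with 2 of 12 lower. The CD8+ DC markers averaged 9.48 (9.43 to 9.52) on Mst1/2-KO and 9.12 (8.89 to 9.38) on WT arrays, with 0 of 12 called. Of 16 macrophage and monocyte markers, Adgre1, a macrophage surface receptor gene, fell by 1.47 ± 0.22 (adjusted p = 0.0192) and the others were not called, with list means of 7.42 (7.31 to 7.63) on Mst1/2-KO and 7.59 (7.35 to 7.77) on WT arrays. All 5 platelet markers had differences below 0, with 0 called and means of 4.47 (4.42 to 4.51) on Mst1/2-KO and 4.90 (4.52 to 5.31) on WT arrays. Of 9 plasmacytoid DC markers, 2 had differences above 0 in total DCs and 0 were called. Their means were 6.96 (6.54 to 7.59) on Mst1/2-KO and 7.36 (6.85 to 7.78) on WT arrays. The part of these cells in the total DC values was not tested.

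The second question was how the integrin chains divide the subsets, in each genotype. In Mst1/2-KO cells 2 of 10 members were higher and 5 lower in CD8+ than in CD8- DCs, and in WT cells 3 were higher and 5 lower. Of all genes, 19.2% were called between the Mst1/2-KO subsets and 21.0% between the WT subsets. Markers of other cells moved with the subsets. Of 16 macrophage and monocyte markers, 11 were lower in CD8+ DCs in each genotype, with list means of 7.03 (6.85 to 7.22) in CD8+ and 8.0 (7.90 to 8.08) in CD8- DCs of Mst1/2-KO mice, and of 7.03 (6.88 to 7.15) in CD8+ and 7.95 (7.72 to 8.05) in CD8- DCs of WT mice. Of 8 NK cell markers, 4 were lower in CD8+ DCs of Mst1/2-KO and 6 in those of WT mice, and of 9 T cell markers 6 were lower in Mst1/2-KO and 7 in WT mice. Of 9 plasmacytoid DC markers, 5 were lower and 0 higher in CD8+ DCs of Mst1/2-KO mice, and 3 lower and 1 higher in those of WT mice. Their means were 6.71 in CD8+ and 8.08 in CD8- DCs of Mst1/2-KO mice, and 6.75 in CD8+ and 7.26 in CD8- DCs of WT mice. Macrophages and NK cells carry Itgam and Itgb2, and the part of all these cells in the subset differences was not tested. Itgae and Itgam gave the largest contrasts. In Mst1/2-KO cells the CD8+ arrays gave 9.92 to 10.38 for Itgae, against 5.61, 5.51, 5.83 and 5.32 on the CD8- arrays, a difference of 4.58 ± 0.21 or 24.0-fold (n = 4 and 4, adjusted p = 3.59e-11). In WT cells the CD8+ arrays gave 9.35 to 10.64, against 5.44, 5.26, 5.24 and 5.57 on the CD8- arrays, a difference of 4.86 ± 0.21 or 29.0-fold (adjusted p = 1.35e-11). The subsets lay far apart in both genotypes. Itgam ran the other way, lower in CD8+ DCs with a difference of -3.82 ± 0.14 (14.2-fold) in Mst1/2-KO and -3.81 ± 0.14 (14-fold) in WT cells.

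Of the other β2 family chains, Itgal was higher in CD8+ DCs by 0.60 ± 0.10 in Mst1/2-KO and by 0.63 ± 0.10 in WT cells. Itgax was lower there, with -0.49 ± 0.07 in Mst1/2-KO and -0.51 ± 0.07 in WT cells. Itgb2 gave -0.44 ± 0.10 in Mst1/2-KO and -0.47 ± 0.10 in WT cells, so the common β2 chain ran with Itgam and Itgax and against Itgal. Itgad gave -1.18 ± 0.18 in Mst1/2-KO and -0.67 ± 0.18 in WT cells. Itgb7 was lower in CD8+ DCs, with -0.63 ± 0.10 in Mst1/2-KO and -0.66 ± 0.10 in WT cells, although its partner Itgae was higher there. These 5 chains passed in both genotypes (adjusted p up to 0.0119). Itgb1 differed by 0.13 ± 0.07 in Mst1/2-KO cells (adjusted p = 0.274), while in WT cells it was higher in CD8+ DCs by 0.48 ± 0.07 (adjusted p = 6.63e-05). Itga4 differed by 0.03 (95% interval -0.17 to 0.23) in Mst1/2-KO and by -0.02 (-0.21 to 0.18) in WT cells. Itgb8 did not pass in either genotype (adjusted p = 0.0757 in Mst1/2-KO and 0.401 in WT cells), although in Mst1/2-KO cells it did without CD8+ replicate 4 (adjusted p = 0.0336).

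**Figure D3:**
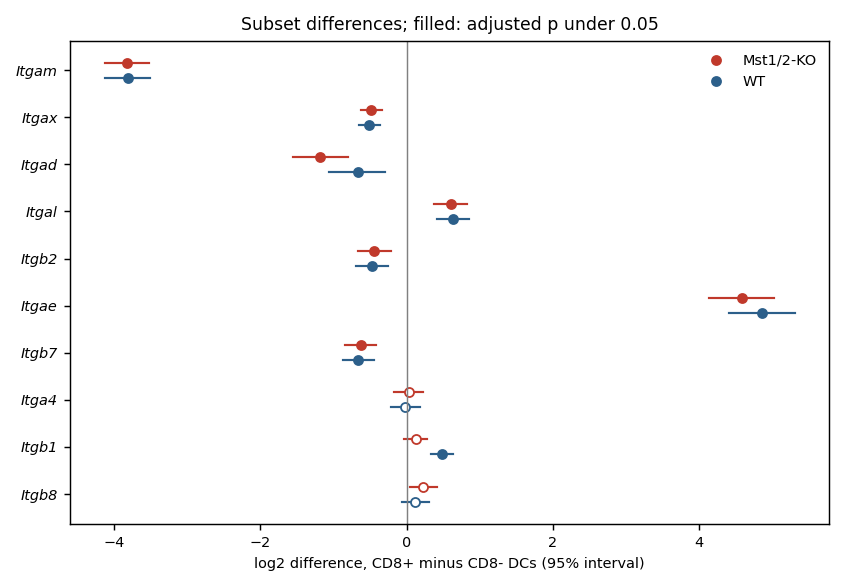
Log2 difference, CD8+ minus CD8- DCs, of the 10 integrin chains with 95% intervals in Mst1/2-KO (red, upper) and WT (blue, lower) cells (n = 4 arrays per group). Filled points passed an adjusted p under 0.05; Itgae lies at 4.58 and 4.86, Itgam at -3.82 and -3.81, and Itgb1 at 0.13 and 0.48, a difference that did not pass the test across genes.

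The genes whose centred signal over the 16 sorted arrays lay closest to that of a member were listed for the 4 members whose group means spanned at least 1 log2 unit. For Itgae these were Cd207 (root mean square difference 0.33 log2 units), the gene of langerin, Ctla2b (0.41) and P3h2 (0.42). Cybb, a subunit of the phagocyte oxidase (0.30), and the lectin genes Clec4b1 and Clec4a3 (0.31 each) were closest to Itgam. Depdc1a (0.32), Bst2 (0.33) and the lectin gene Mgl2 (0.34) were closest to Itgad. Hdac10 (0.13), the condensin subunit gene Ncapd2 (0.15) and Lbr (0.15), the gene of the lamin B receptor, were closest to Itgb7. Of the genes closest to Itgam, Cybb averaged 8.02 in Mst1/2-KO against 7.61 in WT CD8+ DCs, and 11.76 against 11.69 in CD8- DCs. Clec4b1 averaged 4.21 in Mst1/2-KO against 3.34 in WT CD8+ DCs, and 8.31 against 7.49 in CD8- DCs. Its WT CD8+ mean lies below the array medians of 4.11 to 4.20. Clec4a3 averaged 7.88 in Mst1/2-KO against 6.84 in WT CD8+ DCs, and 10.98 against 10.60 in CD8- DCs. Below the array medians also lay the Mgl2 means in Mst1/2-KO CD8+ (3.69), WT CD8+ (3.45) and WT CD8- DCs (3.71). The Ctla2b mean in Mst1/2-KO CD8- DCs (3.86) did so too. All of these close genes were listed for their closeness on these same arrays.

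Other integrin chains were measured for 16 of 17 listed genes. In CD8- DCs 1 of the 16 rose with loss of Mst1/2 and 0 fell, against 6.68% of all genes called. That gene was Itga5, the α5 chain of the fibronectin receptor, with 6.37 ± 0.20 (6.15 to 6.61) on Mst1/2-KO and 5.38 ± 0.24 (5.20 to 5.73) on WT arrays, a change of 0.99 ± 0.14 (adjusted p = 0.000424). Itga5 pairs with β1, whose gene Itgb1 was also called higher in CD8- DCs. The Itgb1 change was 0.29 and its call did not hold in every setting, as given above. A count of 1 of 16 other chains lies near the share of all genes called. In CD8+ DCs Itga5 averaged 5.70 ± 0.27 in Mst1/2-KO and 5.70 ± 0.16 in WT cells, and its effects differed between the subsets by 0.99 ± 0.20 (adjusted p = 0.0319). That call ended without 10 of the 16 arrays taken singly (adjusted p up to 0.0786). In CD8+ and total DCs 0 of the 16 other chains were called for genotype.

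Between the subsets, 19.2% of all genes were called in Mst1/2-KO and 21.0% in WT cells. Of the 16 other chains, 4 (Itga1, Itga3, Itga6 and Itga8) were higher in CD8+ than in CD8- DCs in both genotypes. The lower ones were Itgb3, Itgb5 and Itga5 in Mst1/2-KO cells and Itgb3, Itgb5 and Itga9 in WT cells; Itga6, Itgb5, Itga9 and Itga5 are named here after their values had been seen. Itga8, whose protein pairs with β1, differed by 3.20 ± 0.12 in Mst1/2-KO and 3.32 ± 0.12 in WT cells. Itga8 averaged 7.62 ± 0.17 in CD8+ and 4.42 ± 0.16 in CD8- DCs of Mst1/2-KO mice, and 7.66 ± 0.07 in CD8+ and 4.34 ± 0.27 in CD8- DCs of WT mice. Itga1 and Itga3, also β1 partners, were higher in CD8+ DCs by 1.83 ± 0.16 and 0.98 ± 0.16 in Mst1/2-KO and by 1.88 ± 0.16 and 1.23 ± 0.16 in WT cells. Itgb3, the β3 chain of the vitronectin receptor, was lower in CD8+ DCs, with -1.92 ± 0.15 in Mst1/2-KO and -1.89 ± 0.15 in WT cells.

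Integrin activation and adaptor genes were measured for 36 of 41 listed genes, and in CD8- DCs 6 rose and 2 fell with loss of Mst1/2 (median change 0.01, against 0 over all genes). Of all genes, 6.68% were called there. Rasgrp2, the exchange factor that switches on Rap1 upstream of integrins, gave 7.41 ± 0.21 in Mst1/2-KO against 5.98 ± 0.43 in WT and rose by 1.43 ± 0.19. Parvb (0.95 ± 0.21), Vcl, the gene of vinculin (0.91 ± 0.16), and Zyx, the gene of zyxin (0.62 ± 0.10), rose as well (adjusted p of these 4 genes 0.000181 to 0.00859). The other 4 called genes are named here after their values had been seen. Fyb and Skap2, adaptors of integrin signalling, fell by 0.57 ± 0.09 and 0.32 ± 0.07 (adjusted p = 0.00063 and 0.0126). Flna and Cyth1 rose by 0.47 ± 0.12 and 0.38 ± 0.11 (adjusted p = 0.0228 and 0.0358), and their calls ended without any 1 of 5 and of 6 arrays of these groups (adjusted p up to 0.0916 and 0.117). Both calls also ended with a fit to these groups alone (adjusted p = 0.0578 and 0.117), and that of Cyth1 with cyclic loess normalization (adjusted p = 0.0611). The effect on Rasgrp2 was larger in CD8- than in CD8+ DCs by 1.33 ± 0.26 (adjusted p = 0.0272), a call that ended without 9 of the 16 arrays taken singly (adjusted p up to 0.0648).

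In CD8+ DCs 1 of the 36 was called, against 0.888% of all genes: Dok1, an adaptor that restrains β chain activation, fell by 0.59 ± 0.08 (5.97 ± 0.10 in Mst1/2-KO against 6.56 ± 0.02 in WT, adjusted p = 0.000412). Between the Mst1/2-KO subsets 3 were higher and 13 lower in CD8+ DCs, led by the kinase gene Fgr (-3.46 ± 0.12), Rasgrp2 (-2.66 ± 0.19), the kinase gene Syk (-1.32 ± 0.09) and Fyb (-1.29 ± 0.09). Between the WT subsets 7 were higher and 10 lower, led by Fgr (-2.99 ± 0.12), Fyb (-1.65 ± 0.09), Rasgrp2 (-1.33 ± 0.19) and Syk (-1.25 ± 0.09). Of all genes, 19.2% were called between the Mst1/2-KO and 21.0% between the WT subsets. In total DCs 0 of 36 were called for genotype.

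Of 23 listed ligands and counter-receptors 21 were measured. With loss of Mst1/2, 1 rose and 2 fell in CD8- DCs, against 6.68% of all genes called. In CD8- DCs Cdh1, the gene of E-cadherin, which αEβ7 binds, rose by 0.52 ± 0.09 (6.22 ± 0.20 in Mst1/2-KO against 5.70 ± 0.10 in WT, adjusted p = 0.00241). Icam1, the ligand of LFA-1 and Mac-1, fell by 0.53 ± 0.10 (7.97 ± 0.08 in Mst1/2-KO against 8.50 ± 0.18 in WT, adjusted p = 0.00353), and F11r, a junctional ligand of LFA-1, fell by 0.62 ± 0.16 (adjusted p = 0.0219). The F11r call ended without WT replicate 3 or 4 or Mst1/2-KO replicate 1 or 4 (adjusted p up to 0.0785). In CD8+ and total DCs 0 of 21 were called for genotype. Between the subsets, 0 of 21 were higher and 5 lower in CD8+ DCs of Mst1/2-KO mice, and 1 was higher and 3 lower in those of WT mice. These counts lie near the shares of all genes called, 19.2% in Mst1/2-KO and 21.0% in WT cells. F11r differed by -1.71 ± 0.16 in Mst1/2-KO and -1.66 ± 0.16 in WT cells, and Icam2, another LFA-1 ligand, by -0.98 ± 0.15 in Mst1/2-KO and -0.74 ± 0.15 in WT cells. Fn1, the gene of fibronectin, differed by -1.0 ± 0.18 in Mst1/2-KO and -0.63 ± 0.18 in WT cells. Thy1 was lower in CD8+ DCs of Mst1/2-KO mice (-0.85 ± 0.25), and Lrrc32, whose protein holds latent TGF-β at the cell surface, was higher in CD8+ DCs of WT mice (0.64 ± 0.20, adjusted p = 0.0299). These last calls ended without any 1 of 3 arrays for Thy1 (adjusted p up to 0.0826) and of 5 arrays for Lrrc32 (adjusted p up to 0.106), and that of Fn1 in WT cells without CD8+ replicate 2 or CD8- replicate 1 (adjusted p = 0.0518 and 0.055). The Lrrc32 call also ended with a fit to the WT subsets alone (adjusted p = 0.0506).

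**Figure D4:**
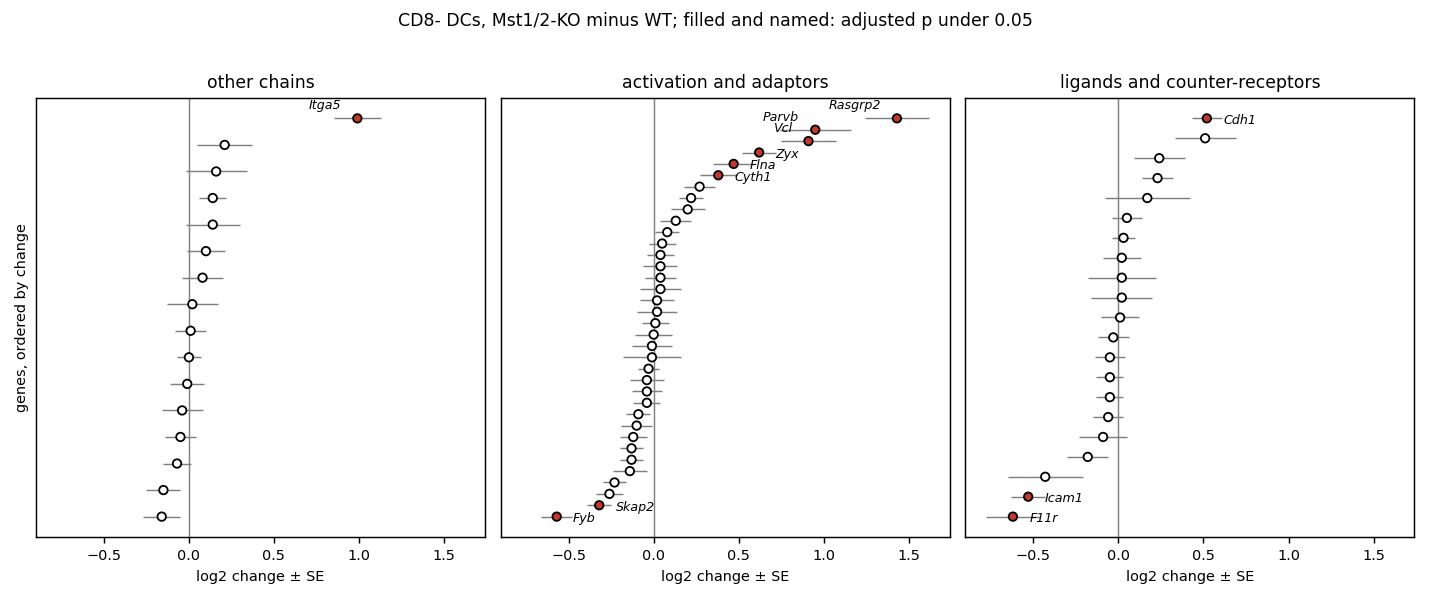
Log2 change with its SE, Mst1/2-KO minus WT in CD8- DCs, of 16 other integrin chains, 36 activation and adaptor genes and 21 ligands and counter-receptors, each panel ordered by change. Filled, named genes passed an adjusted p under 0.05 (1, 8 and 3 genes); Rasgrp2 lies highest at 1.43 and F11r lowest at -0.62.

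The neighbours of Itgam, Itgax and Itgad were also read, a choice made after their values had been seen. In the RefSeq order on chromosome 7, Cox6a2, a cytochrome c oxidase subunit gene also used as a plasmacytoid DC marker, is the next gene listed after Itgad. Cox6a2 gave 11.07, 10.67, 10.71 and 10.42 on Mst1/2-KO CD8- arrays, against 7.45, 6.82, 6.52 and 7.16 on WT CD8- arrays, a rise of 3.73 ± 0.17 (adjusted p = 2.53e-09). Its differences were 0.54 ± 0.17 in CD8+ and 0.95 ± 0.31 in total DCs, neither of which passed (adjusted p = 0.209 and 0.204). On the other side, Trim72 and Itgax did not pass in CD8- DCs (adjusted p = 0.969 and 0.745), Itgam rose as given above, and Pycard, the gene of an inflammasome adaptor, rose by 0.47 ± 0.10 (adjusted p = 0.00699). The flanking genes Kat8, Prss8, Prss36, Tgfb1i1 and Slc5a2 lay between -0.08 and 0.09 in CD8- DCs, and none of them was called.

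**Figure D5:**
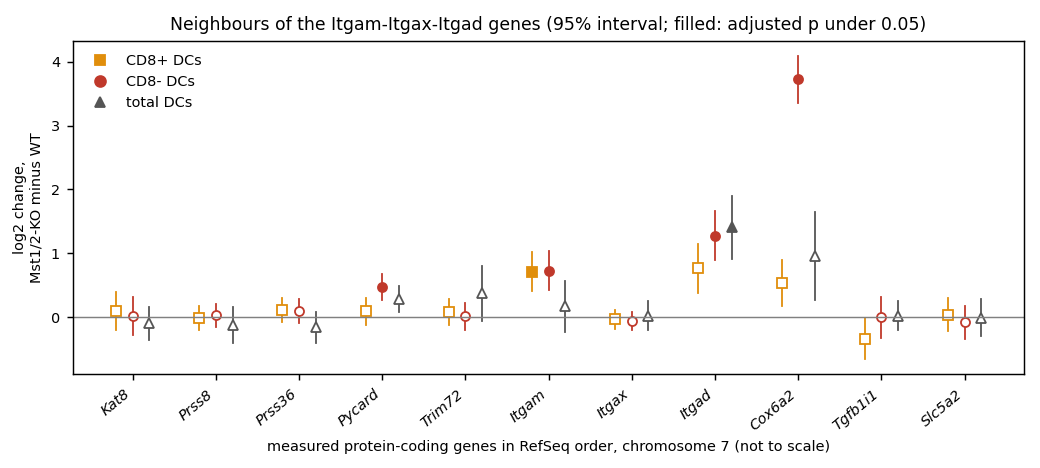
Log2 change, Mst1/2-KO minus WT, with 95% intervals for the measured genes around Itgam, Itgax and Itgad in RefSeq order, evenly spaced and not to scale, in CD8+ (squares), CD8- (circles) and total DCs (triangles). Filled symbols passed an adjusted p under 0.05; Cox6a2 stands at 3.73 in CD8- DCs, Itgad at 1.27 and Itgax at -0.06.

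The third question was whether loss of p38 altered these chains in anti-CD40-stimulated Rag1-/- DCs. With 3 against 4 arrays, limma called 0 of 10 members and 0 of 22180 genes (0% of all genes); 4 of 10 members and 8.41% of all genes had an unadjusted p under 0.05. Mapk14, the gene of p38α, averaged 8.47 ± 0.08 in Rag1-/-/p38-/- and 8.24 ± 0.26 in Rag1-/- arrays (0.23 ± 0.14, adjusted p = 0.657), so the array gave no check of this label. The ranges of the genotypes were separate for 3 of 10 members, against 7.48% of all genes. These were Itgad, Itgb7 and Itgb1.

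Itgad gave 6.56, 6.91 and 6.78 in Rag1-/-/p38-/- against 6.03, 5.77, 6.08 and 5.80 in Rag1-/- arrays, a difference of 0.83 ± 0.12 (unadjusted p = 0.000211 in limma, adjusted p = 0.205). Itgb7 gave 7.97, 8.18 and 8.0 in Rag1-/-/p38-/- against 7.66, 7.76, 7.35 and 7.15 in Rag1-/- arrays, a difference of 0.57 ± 0.15 (adjusted p = 0.476). Every Rag1-/-/p38-/- array lay above every Rag1-/- array for both genes. Itgb1 lay below instead, with 9.50, 9.51 and 9.42 in Rag1-/-/p38-/- against 9.60, 9.64, 9.81 and 9.85 in Rag1-/- arrays, a difference of -0.25 ± 0.07 (adjusted p = 0.515). The remaining members overlapped between the genotypes, with differences from -0.25 ± 0.12 for Itgal to 0.53 ± 0.25 for Itgam. Cox6a2 differed by 1.09 ± 0.29 in the same direction as Itgad (adjusted p = 0.47). All 10 neutrophil markers had differences below 0, with 0 called and list means of 4.67 (3.87 to 5.20) in Rag1-/-/p38-/- against 5.96 (5.63 to 6.53) in Rag1-/- arrays, and the 16 macrophage and monocyte markers averaged 7.24 (7.07 to 7.43) in Rag1-/-/p38-/- against 7.70 (7.35 to 8.02) in Rag1-/- arrays. Neutrophils and macrophages carry Itgam and Itgb2 themselves, and the part of these cells in the integrin values was not tested. Of the other chains, activation genes and ligands, 0 were called.

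In experiment 2 each comparison rested on a single array on one side, and the spread was pooled with experiment 1. Anti-CD40-stimulated Rag1-/- arrays gave 9.19 and 8.93 for Itgae, against 8.24 on the non-stimulated Rag1-/- array and 7.32 on the anti-CD40-stimulated WT array. The differences were 0.82 ± 0.31 for stimulation (adjusted p = 0.313) and 1.74 ± 0.31 for Rag1 loss (adjusted p = 0.0696). Neither passed, and limma called 0 of 10 members in either comparison, against 0.0361% of all genes for stimulation and 0.365% for Rag1 loss. An unadjusted p under 0.05 was reached by 1 of 10 members for stimulation, against 13.1% of all genes, and by 2 of 10 for Rag1 loss, against 14.0% of all genes. The next largest differences for Rag1 loss were 0.57 ± 0.36 for Itgam and 0.48 ± 0.17 for Itgad (adjusted p = 0.54 and 0.27). All 10 neutrophil markers had differences above 0, with 0 called and means of 6.62 in Rag1-/- against 5.10 in WT. The called markers were 3 of 9 B cell markers and 1 of 9 T cell markers, all lower in Rag1-/-, with B cell means of 4.42 in Rag1-/- against 5.15 in WT. Of 16 macrophage and monocyte markers, 14 had differences above 0, with 0 called and means of 7.79 in Rag1-/- against 7.43 in WT. The NK cell markers averaged 5.69 in Rag1-/- against 4.55 in WT, and the part of such cells was not tested. With stimulation the other 9 members differed by -0.23 to 0.20. For stimulation, 11 of 12 CD8+ DC markers had differences above 0, with 0 called. Their means were 9.49 with anti-CD40 and 9.10 on the non-stimulated array. Of 10 neutrophil markers, 9 had differences above 0, with 0 called and means of 6.62 with anti-CD40 against 5.63 without. The part of these cells in the Itgae difference was not tested.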

How the data were processed

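RNA from sorted splenic DCs, 1 to 5 ng per sample, was amplified and hybridised to 1 array per sample, per the labels' protocols. The deposited values are log2 signals, and the submitters' processing notes name RMA and Partek 6.6. The genome build is not given in these sources. Of 41155 probe sets, 23521 carried 1 gene symbol, 1814 several and 15820 none, and the probe set with the highest mean stood for a gene, giving 22180 genes. The values carry a constant per probe set that differs between experiment labels, so comparisons stayed within a label. The number of arrays limits the precision. Models with a mean per group used limma 3.58.1 under R 4.3.3: 16 sorted arrays, 7 total DC arrays, 7 arrays of experiment 1, and 11 arrays for experiment 2. P-values were Benjamini-Hochberg adjusted over all genes, with calls under 0.05. The code was tested on simulated data.

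All 10 members are named. Of the other integrin lists, up to 4 called genes with the largest change per comparison are named, with exceptions stated. The members, lists and naming rule were chosen with earlier results of these data known. Same-numbered WT CD8+ and CD8- arrays deviated together (correlation of their deviations from the group means 0.13 to 0.34 over 4 pairs) which meets the check for pairing, though no label states one; the models given have no block, and the fit with it is an alternative. Alternatives were quantile and cyclic loess normalization, genes above the median gene only, an intensity trend with a robust prior, all single-symbol probe sets, the compared groups only, a replicate block and leaving out each array.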

Additional observations from a re-analysis of the deposited data

Results flagged for a closer look

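In WT total DCs, Itgam on replicate 3 stood at 7.60, against 6.92 to 7.03 on the other 3 arrays, and the gap made up 0.839 of the range of the group. In the same group, Itgb7 on replicate 2 stood at 7.77, against 7.55 to 7.58 on the others, a gap of 0.84 of the range. Both passed Dixon's 95% limit for 4 samples. Of 60 pairs of member and group examined 2 passed it, and chance alone flags about 1 in 20. The members share the same arrays, so these pairs are not independent.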

How the results depend on the processing

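Of 22 called pairs of member and comparison, 18 kept the call in every setting, and 3 of 68 uncalled pairs were called in some setting. No called change reversed its sign. Of 1211 values under alternatives, 41 uncalled ones changed sign, none larger in size than 0.10. In CD8+ DCs the count of members called for genotype was 2, against 0 with a fit to these groups alone and 0 to 3 without 1 array. In total DCs it was 1, against 2 with an intensity trend and robust prior and 0 to 1 without 1 array. Why these counts changed was not tested. The fits to these groups alone and without 1 array hold fewer arrays, while that with an intensity trend and robust prior used all total DC arrays. In CD8- DCs the count was 4, and 3 to 4 without 1 array. With the replicate block, no member call changed: Itgam in CD8+ DCs gave 0.71 ± 0.09 (adjusted p = 0.00127). For genotype this block joins Mst1/2-KO and WT arrays by number alone, and no label states such a link. Its smaller SE is therefore no added support for the Itgam call. The block ended 1 call among the other lists, that of Rassf5 between the Mst1/2-KO subsets (adjusted p = 0.0519). Same-numbered arrays of the Mst1/2-KO subsets correlated at 0.09 to 0.21 (other numbers -0.18 to 0.07), and those of the groups in experiment 1 at 0.09 to 0.16 (-0.16 to 0.08). In both the ranges were separate. Between Mst1/2-KO and WT they overlapped, with -0.07 to 0.09 in CD8+ DCs (other numbers -0.10 to 0.07) and 0.01 to 0.09 in CD8- DCs (-0.07 to 0.04). Total DCs gave 0.05 to 0.13 (-0.19 to 0.17). No label states a pairing. The count of activation and adaptor genes called for genotype was 8 in CD8- DCs (6 to 11 under the alternatives), 1 in CD8+ DCs (1 to 2) and 0 in total DCs (0 to 5). That of ligands in CD8+ DCs was 0 (0 to 2). Of 71 calls in the other integrin lists, 57 were kept in every setting. Itgb8, whose mean lies below that of the median gene, could not be followed among genes above the median gene. In experiment 2, leaving out an array that is alone in its group was not possible.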
